A study of Arabidopsis thaliana with 6 samples.

Results

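The loci described here lie in and around the centromeres of chromosomes 1, 2, 3 and 5 of Arabidopsis thaliana. They were chosen by ranges of locus numbers, and no expression value enters that rule. Every row of the deposited table between AT1G35000 and AT1G43999, AT2G10000 and AT2G15199, AT3G30000 and AT3G42659, or AT5G28000 and AT5G34999 was taken, apart from 7 loci that are not reported here. This gave 2662 of the 33602 loci in the table. Chromosome 1 held 674 of them, chromosome 2 held 657, chromosome 3 held 642 and chromosome 5 held 689.

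RNA was measured in endosperm nuclei at 4 days after pollination, isolated by INTACT, a method that tags nuclei of one cell type so that they can be pulled down, and sequenced from poly(A) RNA in 6 libraries. In the cross called Cm x L, the mother was the INTACT line in TEmob Columbia and the father was Landsberg erecta. In the reverse cross, called L x Cm, the mother was a Landsberg erecta pistillata mutant and the father was the TEmob Columbia line. Each cross had 3 libraries, and nothing in the labels ties them to separate plants. The p-values therefore cover only the spread between these libraries, which may be technical.

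The TEmob line was started from Columbia seeds plated on medium with α-amanitin, which blocks RNA polymerase II, and 40 µM zebularine, which blocks DNA methyltransferases. The plates were held in the cold and later at 37 °C in darkness. It was crossed to a cenh3 line carrying CENH3-TAILSWAP, which yields haploid offspring, and a diploid line was recovered after colchicine. TEmob is therefore a single recovered line, and it is a parent in both crosses. The mother contributes more genome copies to endosperm than the father does, and the INTACT tag comes with the TEmob parent. Accession, parental origin, genome dose, the origin of the tag and the mother's pistillata genotype therefore change together between the crosses and cannot be told apart. Crosses with untreated Columbia were not analysed here.

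Pericentromeric chromatin in Arabidopsis is packed with transposon remnants, pseudogenes and a minority of working genes. Most of it is kept silent by DNA methylation in CG and non-CG contexts together with methylation of histone H3 on lysine 9. In the central cell, the female precursor of the endosperm, part of the maternal DNA methylation is removed before fertilisation. This is one source of expression that depends on the parent an allele comes from.

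In the RefSeq annotation of assembly TAIR10.1, 2610 of the 2662 loci had an entry and 52 had none. The annotated loci comprised 1983 pseudogenes, of which 178 are marked as transcribed, 602 protein-coding genes and 25 genes for non-coding RNA. The chromosome 1 loci spanned positions 12808246 to 16705876 and the chromosome 2 loci spanned 3786133 to 6597558. Those of chromosome 3 spanned 11746725 to 14750294, with 1 locus far outside at 2100021 to 2101402, and those of chromosome 5 spanned 10020653 to 13274842.

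The 250 bases upstream of the annotated start are shown for 6 of the loci, 3 with higher and 3 with lower levels in Cm x L, because CG methylation in such stretches is the silencing mark that zebularine interferes with. The sequences are from the TAIR10.1 assembly, are written 5′ to 3′ on the strand of the locus, and carry each CG in capitals. QQS lies downstream of chr3:12348797-12349046 (plus strand), SADHU3-2 of chr3:14750295-14750544 (minus strand) and the reticulon pseudogene AT3G32377 of chr3:13313686-13313935 (minus strand). The other 3 are the pseudogene AT5G28785 (chr5:10816944-10817193, plus strand), the bZIP pseudogene AT2G13115 (chr2:5400838-5401087, plus strand) and the retrotransposon ORF-1 gene AT3G30820 (chr3:12529593-12529842, plus strand).
QQS: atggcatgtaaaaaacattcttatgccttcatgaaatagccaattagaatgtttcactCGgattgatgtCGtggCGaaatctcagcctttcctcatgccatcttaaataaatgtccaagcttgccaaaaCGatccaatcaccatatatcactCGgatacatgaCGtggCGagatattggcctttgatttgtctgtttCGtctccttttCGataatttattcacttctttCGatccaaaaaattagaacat
SADHU3-2: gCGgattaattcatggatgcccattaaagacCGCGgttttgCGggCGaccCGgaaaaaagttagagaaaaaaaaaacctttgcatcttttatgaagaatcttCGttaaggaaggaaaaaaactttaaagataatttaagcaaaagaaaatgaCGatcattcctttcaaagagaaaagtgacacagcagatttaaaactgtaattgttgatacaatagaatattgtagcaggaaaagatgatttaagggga
AT3G32377: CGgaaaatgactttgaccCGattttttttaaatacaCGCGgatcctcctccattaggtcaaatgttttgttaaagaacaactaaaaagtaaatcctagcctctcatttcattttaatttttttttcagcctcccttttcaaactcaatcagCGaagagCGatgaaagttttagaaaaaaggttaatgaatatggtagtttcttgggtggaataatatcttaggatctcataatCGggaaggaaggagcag
AT5G28785: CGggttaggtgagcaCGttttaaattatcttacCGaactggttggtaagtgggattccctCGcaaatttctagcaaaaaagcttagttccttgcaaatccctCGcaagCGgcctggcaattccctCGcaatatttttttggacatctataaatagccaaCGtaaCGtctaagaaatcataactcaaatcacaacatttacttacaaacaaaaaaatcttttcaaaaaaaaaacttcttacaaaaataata
AT2G13115: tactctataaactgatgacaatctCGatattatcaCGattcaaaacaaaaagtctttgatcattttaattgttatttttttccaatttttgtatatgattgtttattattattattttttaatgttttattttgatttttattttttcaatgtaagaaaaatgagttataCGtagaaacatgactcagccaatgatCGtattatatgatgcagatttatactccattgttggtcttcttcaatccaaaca
AT3G30820: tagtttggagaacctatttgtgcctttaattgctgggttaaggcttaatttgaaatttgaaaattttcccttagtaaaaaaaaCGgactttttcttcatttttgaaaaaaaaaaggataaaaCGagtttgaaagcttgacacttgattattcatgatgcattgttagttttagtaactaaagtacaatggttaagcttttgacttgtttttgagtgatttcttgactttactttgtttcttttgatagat

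The 3 loci higher in Cm x L held 10, 8 and 7 CG in these windows, and the 3 lower loci held 9, 4 and 2. The median over the windows of all 32835 annotated loci was 5, with quartiles of 3 and 7, and the median over the 2610 annotated pericentromeric loci was also 5. The median was likewise 5 over the loci called higher and over those called lower. In the QQS window the stretch CGTGGCG occurs 2 times. On either strand it occurred at least once in 0.898% of all windows and in 0.383% of the pericentromeric ones, and this motif was picked after the sequence had been read. TATAAA, on either strand, was present in 36.1% of the pericentromeric windows and in 45.8% of all windows.

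Values are RPKM, the reads of a locus scaled by its transcript length and by the reads of its library. The totals implied by the smallest steps between pseudogene values were about 22200000 to 29200000 reads per Cm x L library and 21200000 to 27200000 reads per L x Cm library, so 1 read on a locus of 1 kb was worth 0.0342 to 0.0471 RPKM. Over all loci, zeros numbered 1005 to 10084 per Cm x L library and 1270 to 3636 per L x Cm library. Summed RPKM of 5 endosperm markers (FWA, FIS2, PHE1, MEA and AGL62) ran from 191 to 258 in Cm x L and from 197 to 242 in L x Cm, with all 5 above 0 in every library. The 4 seed coat markers summed to 107 to 338 against 196 to 399, and the 2 pollen markers to 43.6 to 445 against 422 to 1685. The 3 embryo markers (STM, WOX9 and CUC3) summed to 3.16 to 6.56 in Cm x L and 34.8 to 71.1 in L x Cm, and CUC3 was at 0 in Cm x L 3.

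The pericentromeric loci supplied a small part of the RNA in either cross. Their summed level was 10576, 12531 and 9840 RPKM in Cm x L libraries 1, 2 and 3 and 15336, 12278 and 11989 RPKM in L x Cm libraries 1, 2 and 3. That was 1.57 ± 0.22% of all RPKM for Cm x L and 1.83 ± 0.25% for L x Cm (SD, n = 3 each). The libraries of the crosses overlapped, since Cm x L 2 lay above the lower 2 L x Cm libraries. Protein-coding genes made up most of the sum and gave 8615 ± 270 RPKM for Cm x L and 8652 ± 524 for L x Cm (SD, n = 3 each).

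The pseudogenes, which are the larger class by number and the smaller by RNA, summed to 1242, 2451 and 969 RPKM in Cm x L and to 4763, 3014 and 2362 RPKM in L x Cm. Only Cm x L 2 reached the L x Cm range, passing its lowest library. Within each cross the libraries stood in the same order for the pseudogene sum as for the summed embryo markers (3.40, 6.56 and 3.16 RPKM in Cm x L, 71.1, 38.9 and 34.8 RPKM in L x Cm), whose part in the result was not tested. That order was not particular to these markers. Pseudogenes outside the regions shared it, with 6653, 8210 and 5055 RPKM in Cm x L and 14541, 11730 and 11010 RPKM in L x Cm. Zeros over all loci rose in the same order, with 5036, 1005 and 10084 in Cm x L and 1270, 2137 and 3636 in L x Cm. The pollen markers shared it in Cm x L only. In bulk nuclei, fewer cells of a type and less RNA per cell cannot be told apart.

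The libraries also differed in how many of the loci were seen at all. Of the 2662 loci, 1104, 73 and 1911 were at 0 in Cm x L 1, 2 and 3, against 187, 369 and 641 in L x Cm 1, 2 and 3. Cm x L 2 thus had the fewest zeros of all 6 libraries, while the other two Cm x L libraries had the most. The median locus stood at 0.0317, 0.611 and 0 RPKM in Cm x L and at 1.45, 0.872 and 0.568 RPKM in L x Cm. In Cm x L 2 the middle of the distribution was narrow, with quartiles of 0.407 and 1.04 RPKM, whereas in L x Cm 1 they were 0.537 and 3.46 RPKM. A level of at least 1 RPKM was reached by 356, 705 and 348 loci in Cm x L and by 1636, 1234 and 971 in L x Cm, so every L x Cm library lay above every Cm x L library by this count. Neither pattern was particular to these loci. Over all loci in the table, 60.7%, 69.9% and 59.1% reached that level in Cm x L. In L x Cm 87.7%, 81.6% and 76.6% did, again without overlap. Cm x L 2 had the fewest zeros over all loci too (1005).

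**Figure D1:**
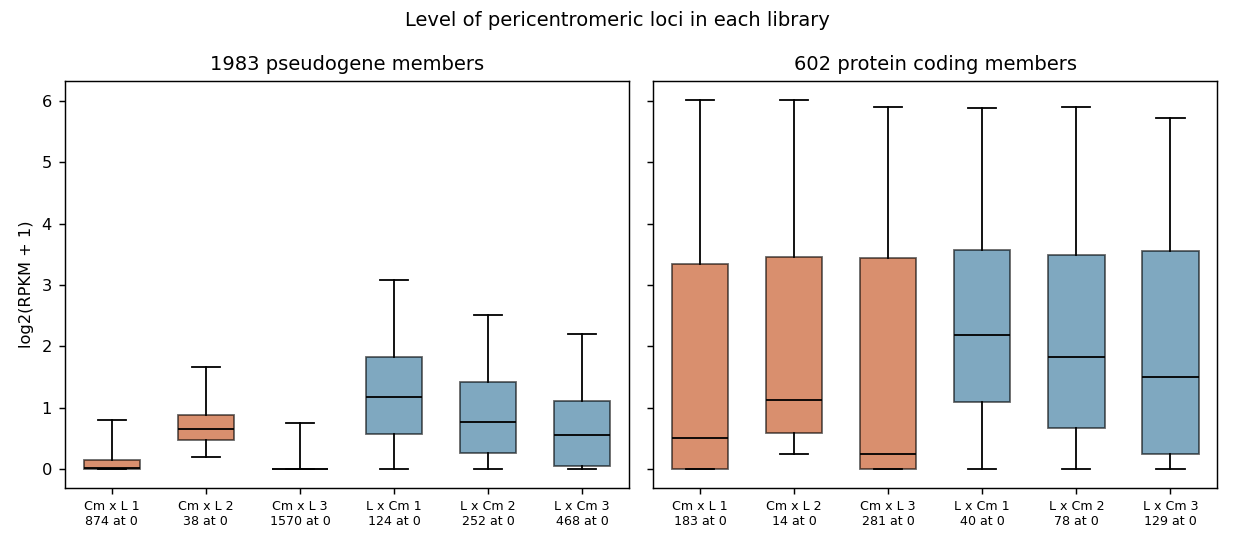
Level of the 1983 pseudogenes (left) and 602 protein-coding genes (right) among the pericentromeric loci in each library, as log2(RPKM + 1). Boxes span the quartiles with the median as a line, whiskers reach the 5th and 95th percentiles, and the number of loci at 0 stands under each library; the pseudogene boxes of the L x Cm libraries reach higher than those of the Cm x L libraries, and Cm x L 2 has the fewest zeros.

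All 6 libraries showed a signal above 0 at 651 of the 2662 loci (24.5%, against 67.7% of all loci in the table), and 23 loci were at 0 in all 6. Detection in every library of a single cross was rare. It was seen for 9 loci in L x Cm alone (0.338%, against 0.250% of all loci) and for 1 locus, the pseudogene AT3G33448, in Cm x L alone. Among the 9 was the pseudogene AT1G43660, with 1.93, 3.07 and 2.48 RPKM in L x Cm 1, 2 and 3. Another was the pseudogene AT2G12690, with 2.34, 1.81 and 2.20 RPKM. Both were listed at 0 in each Cm x L library, so no fold is given.

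The comparison of the crosses was tested with limma on log2(RPKM + 1) for loci whose 6 libraries averaged 1 RPKM or more, with Benjamini-Hochberg adjustment over all 26620 such loci and a threshold of 0.05. Of the pericentromeric loci, 948 (35.6%) passed this filter, and 1714 did not. Differences are given as Cm x L minus L x Cm on that log2 scale, which understates the change of loci with low values. Of the 948 tested loci, 50 (5.27%) were called higher and 329 (34.7%) lower in Cm x L. Over all tested loci the shares were 6.73% higher and 18.3% lower. The median difference was -1.18 for the pericentromeric loci and -0.22 for all loci.

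The filter itself bears on these counts. Of the 948 loci, 556 passed only because their L x Cm mean was at least 1 RPKM while their Cm x L mean was below it, and these held 298 of the 329 lower calls. A further 13 passed through Cm x L alone, and 379 had a mean of at least 1 RPKM in both crosses, with 31 lower and 45 higher. With no filter on level, 392 of 2639 pericentromeric loci (14.9%) were lower and 45 (1.71%) higher, against 14.8% and 4.91% of all loci. After quantile normalization, which gives every library the same distribution of values, 74 of 948 were lower (7.81%) and 71 higher (7.49%), against 6.53% and 7.78% of all loci, and the medians became -0.16 and 0.04.

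With the filter at 1 RPKM and no quantile normalization, lower calls outnumbered higher ones on each of the 4 chromosomes. This did not hold at every setting. With a mean of at least 5 RPKM, chromosome 2 had 18 higher and 14 lower, and chromosome 3 had 9 and 6. After quantile normalization chromosome 2 had 29 higher and 20 lower, and chromosome 5 had 17 and 17. The counts that follow are at the first setting. Chromosome 1 had 7 higher and 87 lower among 272 tested loci, with a median difference of -1.14. Chromosome 2 had 22 higher and 78 lower among 253, with a median of -1.06. Chromosome 3 had 14 and 60 among 156 (median -1.28), and chromosome 5 had 7 and 104 among 267 (median -1.25). Chromosomes 2 and 3 had the larger shares of higher calls, 8.70% and 8.97%, against 2.57% and 2.62% on chromosomes 1 and 5. Whether the chromosomes differ was not tested. Outside these regions, loci of the same chromosomes had medians from -0.25 to -0.17. Lower calls were the more frequent there too, with 429 higher and 1143 lower on chromosome 1 and 242 and 774 on chromosome 2. Chromosome 3 had 351 and 891, and chromosome 5 had 444 and 1021.

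By library values without the limma fit, all 3 Cm x L libraries lay below all 3 L x Cm libraries at 494 of the 948 tested loci (52.1%, against 29.8% of all tested loci) and above them at 80 (8.44%, against 15.7%). The filter favours the first pattern, since 556 of the 948 had passed it through L x Cm alone. The 223 loci numbered AT4G06, from the corresponding region of chromosome 4, had 2 higher and 35 lower among 63 tested (3.17% and 55.6%, against 6.73% and 18.3% of all tested loci), with a median of -1.50. The same filter had shaped these shares. Their summed level was 199, 367 and 139 RPKM in Cm x L and 2169, 1234 and 1232 RPKM in L x Cm, with no overlap between the crosses.

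The balance of calls differed between ranges of level, which the filter had shaped. Of the 669 pericentromeric loci with a mean of 1 to 5 RPKM, 536 had passed through L x Cm alone, and these held 278 of the 284 lower calls in that range. At 5 to 20 RPKM such loci were 19 of 146 and held 19 of 30 lower calls, and at 20 RPKM or more 1 of 133 and 1 of 15. Among the 669 pericentromeric loci with a mean of 1 to 5 RPKM, 5 were higher and 284 lower (42.5%, against 33.2% of all loci at that level). Among the 146 with 5 to 20 RPKM, 13 were higher and 30 lower (20.5%, against 13.4%). Among the 133 with at least 20 RPKM the balance turned, with 32 higher (24.1%, against 14.1% of all loci at that level) and 15 lower (11.3%, against 6.70%). The median difference passed from -1.35 through -0.12 to 0.22 over the 3 ranges.

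**Figure D2:**
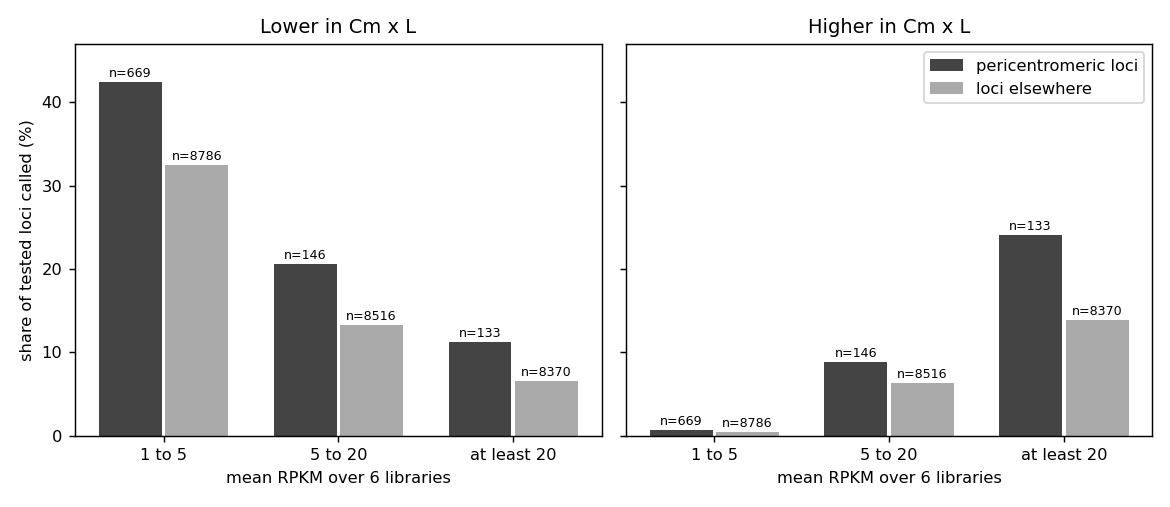
Share of tested loci called lower (left) and higher (right) in Cm x L, in percent, by mean RPKM over the 6 libraries, for pericentromeric loci (dark bars) and loci elsewhere (light bars), with the number tested over each bar. Lower calls are most frequent at 1 to 5 RPKM and higher calls at 20 RPKM and above, in both sets, and each share of the pericentromeric loci is the larger.

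Pseudogenes made up 244 of the 329 lower loci (74.2%) and 539 of the 948 tested loci. Their share of all pericentromeric loci was 74.5%, but that includes the loci not tested, of which 84.2% were pseudogenes. They were 26.0% of the higher loci and 49.6% of the tested loci not called. How many passed the filter through L x Cm alone is not given here by class. Among 539 tested pericentromeric pseudogenes, 13 were higher and 244 lower (45.3%), with a median difference of -1.37. Of the 1157 tested pseudogenes elsewhere in the genome, 36.9% were lower, with a median of -1.20. At 1 to 5 RPKM, 221 of 480 pericentromeric pseudogenes were lower (46.0%), against 380 of 938 elsewhere (40.5%). At 5 to 20 RPKM, 20 of 43 pericentromeric pseudogenes were lower (46.5%), against 36 of 151 elsewhere (23.8%). At 20 RPKM or more, 3 of 16 were lower and 6 higher (median difference 0.66), against 11 lower and 7 higher of 68 elsewhere (median -0.44). Among 380 tested pericentromeric protein-coding genes, 33 were higher and 76 lower (20.0%), with a median of -0.40, against 16.8% lower and a median of -0.15 for protein-coding genes elsewhere. These are descriptions, and the differences between the sets were not tested.

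**Figure D3:**
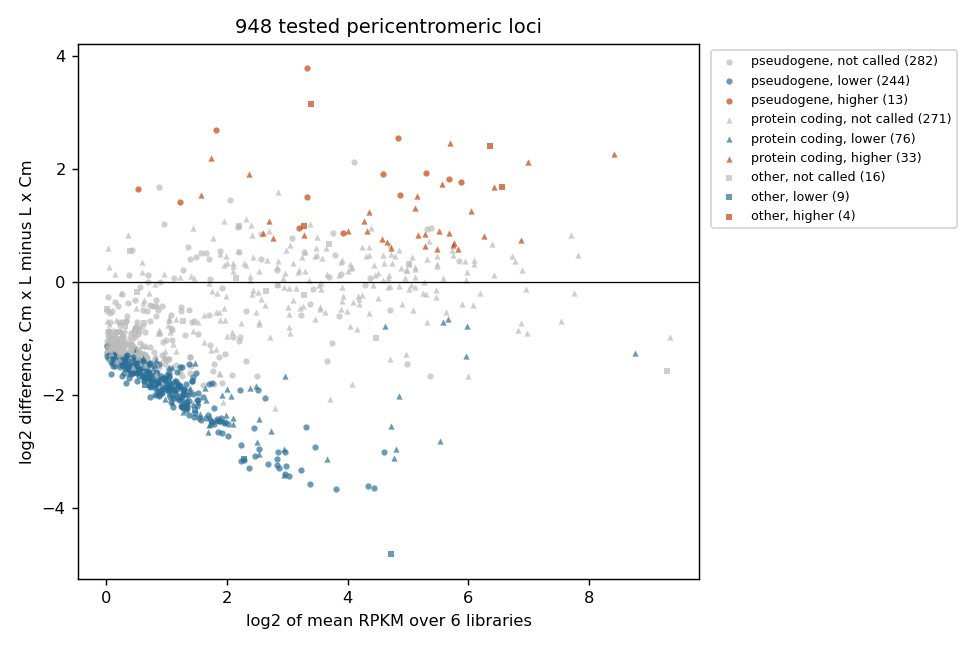
Log2 difference between the crosses (Cm x L minus L x Cm, vertical axis) against log2 of the mean RPKM over 6 libraries (horizontal axis) for the 948 tested pericentromeric loci. Circles are pseudogenes, triangles protein-coding genes and squares other loci, with lower calls in blue, higher calls in red and the rest in grey; the 244 lower pseudogenes crowd at low levels and negative differences, and the higher calls spread over higher levels.

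Repeated sequence was somewhat more common among the lower loci than among all pericentromeric loci. Stretches of at least 100 bases with at least 95% identity elsewhere covered at least 50% of the sequence in 34.3% of the lower loci. The share was 6.25% of the higher loci (3 of 48 annotated), 26.7% of those not called and 28.0% of all annotated pericentromeric loci. The 563 tested loci with no such stretch held 177 lower calls (31.4%) and 42 higher calls. The 263 covered by at least 50% held 110 lower (41.8%) and 3 higher. Of all tested pericentromeric loci 34.7% were lower, and these contrasts were not tested. The median GC content was 43.1% for lower loci, 38.8% for higher loci and 39.6% for loci not called. How the authors' counting treated reads that map to several places is not given in the sources used here, so a value of a repeated locus may hold reads of its copies.

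**Figure D4:**
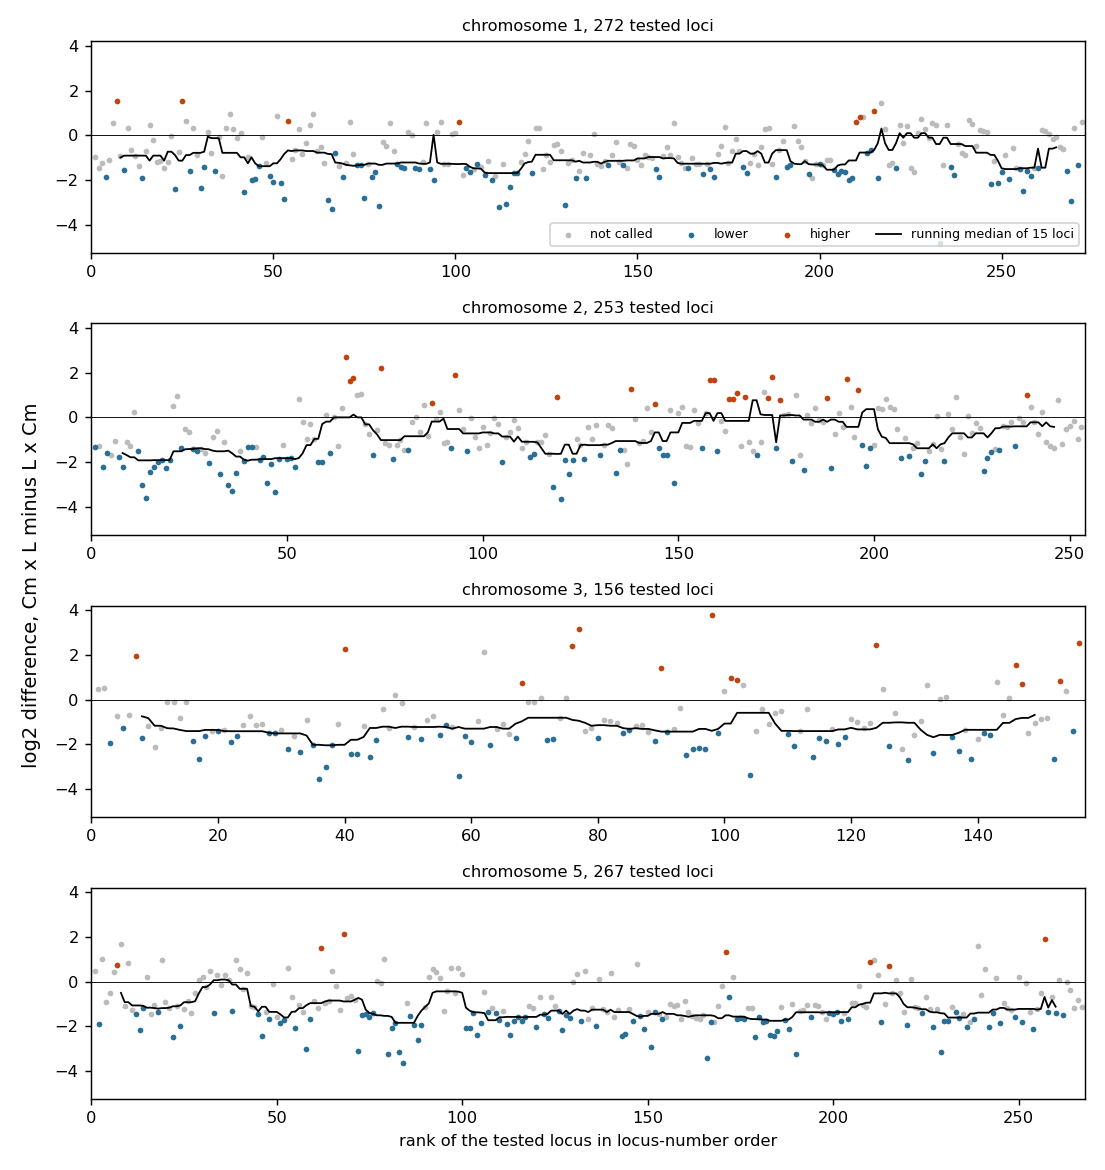
Log2 difference between the crosses for each tested pericentromeric locus, in locus-number order along chromosomes 1, 2, 3 and 5 (horizontal axis: rank among the tested loci). Blue points are lower in Cm x L, red points higher and grey points not called, and the line is the running median of 15 loci; lower calls outnumber higher ones on each chromosome, and the left end of chromosome 2 holds no higher call.

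Along the chromosomes the lower calls were not evenly spread. Among stretches of 500 locus numbers with at least 20 tested loci, the highest shares were in the first 2 of chromosome 2. Of the loci numbered from AT2G10000 to AT2G10499, 17 of 28 tested were lower (60.7%) and none was higher. From AT2G10500 to AT2G10999, 19 of 31 were lower (61.3%) and none higher. Of all tested pericentromeric loci 34.7% were lower and 5.27% higher, and of all tested loci 18.3% and 6.73%. How many loci of a stretch passed the filter through L x Cm alone is not given here. The 65 loci of the first stretch summed to 64.6, 117 and 46.9 RPKM in Cm x L and to 264, 150 and 148 RPKM in L x Cm. The 68 loci of the second summed to 31.4, 78.3 and 22.5 RPKM in Cm x L and to 279, 165 and 134 RPKM in L x Cm. In both stretches every Cm x L library lay below every L x Cm library. The stretches were picked by their share of lower calls, so this separation adds no independent evidence.

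The longest run of consecutive tested loci called lower also lay there, with 9 loci from AT2G10270 to AT2G10340 (chromosome 2, 3943496 to 3983783), of which 8 are annotated pseudogenes. Their differences ran from -3.61 to -1.51. Together they had 1.58, 11.4 and 1.73 RPKM in Cm x L and 140, 64.9 and 46.8 RPKM in L x Cm. A run of 7 pseudogenes from AT5G32487 to AT5G32511 (chromosome 5, 12119770 to 12144657) had 0.649, 6.43 and 0.387 RPKM against 49.7, 29.3 and 23.8 RPKM. Cm x L 2 was the highest Cm x L library in both runs and still lay below each L x Cm library. The runs hold only loci already called lower, so this separation follows largely from how they were chosen.

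Further along chromosome 2 the picture was the reverse. Among the loci numbered from AT2G13500 to AT2G13999, 8 of 27 tested were called higher and 4 lower (29.6% and 14.8%). Over all tested loci the shares were 6.73% and 18.3%. The 57 loci there summed to 815, 717 and 444 RPKM in Cm x L and to 343, 350 and 354 RPKM in L x Cm, without overlap. This stretch was singled out by its higher calls, so its sums are no independent evidence either. A run of 3 adjacent genes in that stretch was higher. SERK4 (AT2G13790), a co-receptor kinase of brassinosteroid and immune signalling, had 57.8, 53.0 and 40.9 RPKM in Cm x L and 27.6, 32.0 and 23.6 RPKM in L x Cm (difference 0.84, SE 0.19, limma adjusted p = 0.0203). Its neighbour SERK5 (AT2G13800), of the same family, differed by 0.83 (SE 0.20, limma adjusted p = 0.0253). The 2 genes are paralogs, though neither has a stretch of 100 bases with 95% identity elsewhere.

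The third gene of the run, ALD1 (AT2G13810), an aminotransferase of systemic acquired resistance, had 21.4, 34.7 and 23.5 RPKM in Cm x L and 8.91, 11.6 and 15.8 RPKM in L x Cm. Its difference was 1.08 (SE 0.26, limma adjusted p = 0.0248). No library of either cross reached the other cross in any of the 3 genes. The calls were not stable to single libraries. ALD1 passed the threshold no longer without Cm x L 1, Cm x L 2, L x Cm 1 or L x Cm 2 (highest adjusted p = 0.0776), SERK4 without Cm x L 1, Cm x L 2 or L x Cm 1 (0.0815) and SERK5 when any library other than Cm x L 3 was left out (0.0964). ALD1 and SERK5 also missed it after quantile normalization (adjusted p = 0.0537 and 0.0556).

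The largest increase was at AT3G32377, a transcribed pseudogene related to reticulons, proteins that shape the endoplasmic reticulum (chromosome 3, 13311076 to 13313685, minus strand). It had 22.3, 18.8 and 17.4 RPKM in Cm x L and 0.686, 0 and 0.934 RPKM in L x Cm, a difference of 3.78 (SE 0.33, limma adjusted p = 0.00421). The libraries were far apart by cross. Its whole length was covered by stretches of at least 95% identity elsewhere. The longest match, of 2614 bases and 95.6% identity, overlaps AT3G31908, which had a mean of 0.556 RPKM in Cm x L and 0.193 RPKM in L x Cm.

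The pseudogene AT2G11150, annotated as derived from a replication protein A1 gene (chromosome 2, 4419683 to 4422079), had 8.52, 7.13 and 4.90 RPKM in Cm x L and 0.184, 0.442 and 0 RPKM in L x Cm. This corresponds to 597, 403 and 260 reads against 12, 23 and 0. It had no near-identical stretch elsewhere and differed by 2.69 (SE 0.35, limma adjusted p = 0.00596). It opened a run of 3 consecutive tested loci that were all higher, of which the middle one, the pseudogene AT2G11165, lost its call without Cm x L 1 or Cm x L 3 (highest adjusted p = 0.0912). The last of them, the pseudogene AT2G11240, had 80.4, 97.7 and 97.7 RPKM in Cm x L and 25.6, 29.9 and 23.5 RPKM in L x Cm (difference 1.77, SE 0.16, limma adjusted p = 0.00444).

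QQS (AT3G30720), an orphan gene found in Arabidopsis thaliana whose level affects starch and protein content and varies with DNA methylation between accessions, had the highest mean of the pericentromeric loci called higher. It had 564, 580 and 549 RPKM in Cm x L and 141, 97.3 and 114 RPKM in L x Cm, a difference of 2.27 (SE 0.20, limma adjusted p = 0.00421). The 3 values of each cross lay close together and the crosses were well separated. The unannotated locus AT3G31051 had 134, 115 and 166 RPKM against 31.1, 23.7 and 21.3 RPKM (difference 2.40, SE 0.20, limma adjusted p = 0.00421).

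AN3 (AT5G28640), a transcriptional co-activator that promotes cell proliferation in leaves, had 302, 230 and 98.1 RPKM in Cm x L and 47.4, 45.8 and 36.2 RPKM in L x Cm. All Cm x L values lay above all L x Cm values, and Cm x L 3 was the lowest of its cross by a wide margin. The difference was 2.12 (SE 0.38, limma adjusted p = 0.0108). The remaining loci among the 10 with the largest increases were AT3G31068, SADHU3-2, AT3G33528, AT2G11522 and AT3G30214, with differences from 1.94 to 3.14. Of the 10, the call of AT3G31068 was lost without L x Cm 2 (adjusted p = 0.0566), that of AT2G11522 without Cm x L 1, Cm x L 2 or L x Cm 2, and that of SADHU3-2 when any library other than Cm x L 3 was left out. The other 7 were called under each omission. On chromosome 1 the largest increases were at the pseudogene AT1G35115 (difference 1.54) and the gene AT1G35320 (1.52), both called under each omission. On chromosome 5, AT5G28622 came after AN3 (1.51, lost without Cm x L 1).

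Sadhu elements are short non-coding retrotransposons of Arabidopsis, and some of their copies are silenced by methylation in some accessions only, SADHU3-2 among them according to the annotation. All 6 Sadhu loci in these regions were tested. SADHU3-2 (AT3G42658, chromosome 3, 14749400 to 14750294) had 77.2, 63.6 and 11.4 RPKM in Cm x L and 8.95, 5.46 and 3.85 RPKM in L x Cm. Its difference was 2.55 (SE 0.65, limma adjusted p = 0.0285), and Cm x L 3 lay much closer to the L x Cm libraries than to the other two of its cross.

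No other Sadhu locus passed the threshold, and their directions were mixed. SADHU1-1 (AT2G10410) had 53.3, 70.9 and 40.5 RPKM in Cm x L and 18.7, 25.1 and 42.0 RPKM in L x Cm, a difference of 0.96 with a limma adjusted p of 0.0572. The crosses overlapped in Cm x L 3 and L x Cm 3. SADHU2-1 (AT1G35112) differed by 0.54, SADHU4-1 (AT5G28913) by -0.50, SADHU7-2 (AT3G31442) by -0.91 and SADHU1-3 (AT5G28626) by -0.96, with limma adjusted p from 0.0689 to 0.219.

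The largest decrease was at AT1G43624, for which the annotation used here has no entry. It had 1.30, 1.62 and 0 RPKM in Cm x L and 48.0, 66.7 and 40.0 RPKM in L x Cm, a difference of -4.82 (SE 0.39, limma adjusted p = 0.00421). The pseudogene AT5G28785 (chromosome 5, 10817194 to 10818477) had 0.485, 1.73 and 1.36 RPKM against 36.2, 27.2 and 17.3 RPKM, which corresponds to 8, 23 and 17 reads against 555, 333 and 207. Its difference was -3.66 (SE 0.36, limma adjusted p = 0.00472). In both loci the lowest L x Cm library was over the highest Cm x L library by a wide margin.

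AT3G30820 encodes a retrotransposon ORF-1 protein (chromosome 3, 12529843 to 12531235) and had no near-identical stretch elsewhere. It had 0.618, 0.383 and 0 RPKM in Cm x L and 27.7, 8.89 and 8.55 RPKM in L x Cm, with L x Cm 1 well above the other two. The difference was -3.41 (SE 0.48, limma adjusted p = 0.00691). The pseudogene AT2G10611 (chromosome 2, 4148724 to 4149032) had 0, 1 and 0 reads in Cm x L and 147, 43 and 45 reads in L x Cm (difference -3.30, SE 0.42, limma adjusted p = 0.00586).

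Several of the strongest decreases belonged to one family of repeats. The pseudogenes AT3G32970 and AT5G32404 each match the pseudogene AT3G30695, over 1008 bases at 96.5% identity and over 1862 bases at 97.9%. AT3G30695 had 0.378, 1.71 and 0.119 RPKM in Cm x L and 31.1, 18.6 and 10.3 RPKM in L x Cm. AT3G32970 and AT5G32404 had means of 0.496 and 0.550 RPKM in Cm x L and 15.2 and 15.7 RPKM in L x Cm. A further match to AT3G32970 and AT5G32404, the locus AT4G06704 on chromosome 4, had means of 0.109 and 7.58 RPKM. The 4 loci had low means in Cm x L, and they are not independent, since they share sequence.

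A second such pair lay on chromosome 2. AT2G10790 and AT2G10770 share 462 bases at 98.9% identity. AT2G10790 had 0.742, 2.02 and 0 RPKM in Cm x L and 27.3, 16.1 and 10.13 RPKM in L x Cm (difference -3.33, SE 0.49, limma adjusted p = 0.00741), and AT2G10770 differed by -2.95 (SE 0.44, limma adjusted p = 0.00753). The pseudogene AT1G35770 differed by -3.28 and matched AT2G06860, outside these regions, whose means were 0.481 and 12.5 RPKM. AT2G10285, in the run of 9 loci, differed by -3.61 and had 22 matching stretches elsewhere. The 10 loci with the largest decreases were called under each omission of a library and after quantile normalization, where their differences ran from -4.31 to -2.74.

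**Figure D5:**
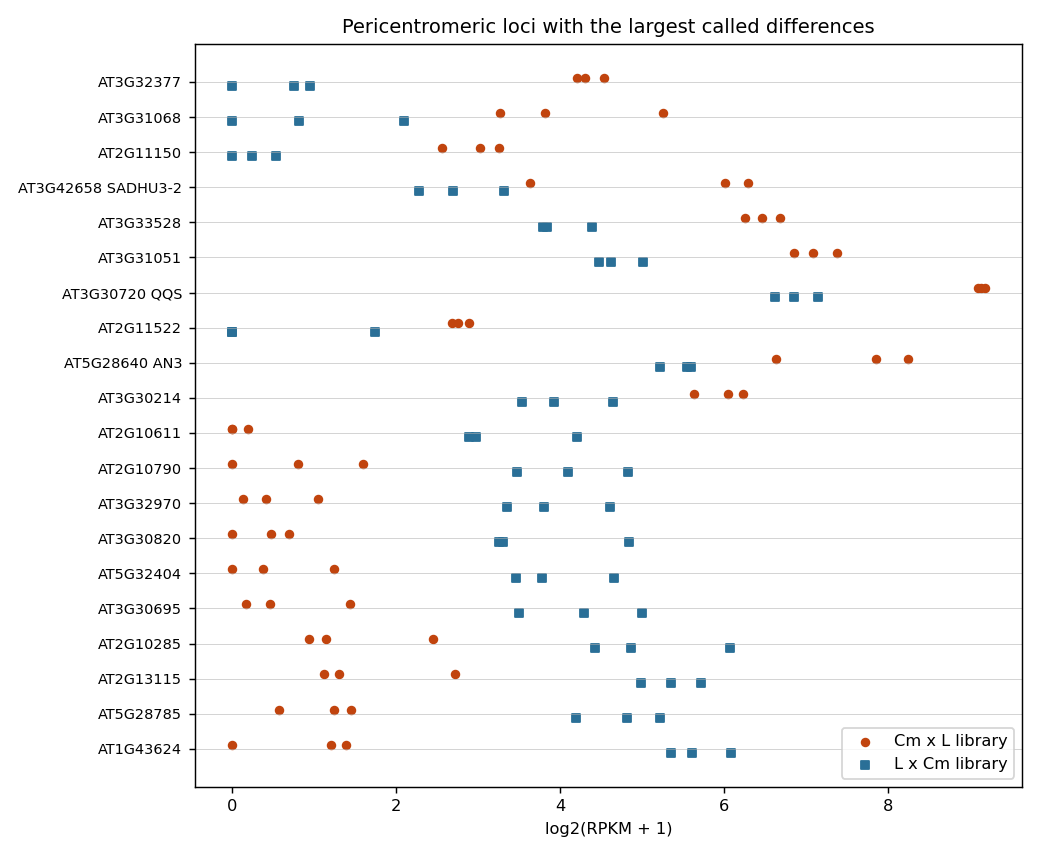
Level of the 20 pericentromeric loci with the largest called differences in each library, as log2(RPKM + 1). Circles are Cm x L and squares L x Cm libraries; the upper 10 loci are higher and the lower 10 lower in Cm x L, and libraries that do not overlap between the crosses were a condition for choosing them.

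The word bZIP or leucine zipper stood in the annotation of 11 loci, of which 9 were tested, 4 were lower and 1 was higher, against 18.3% lower and 6.73% higher among all tested loci. The higher one, PDIL5-2 (AT1G35620), is a protein disulfide isomerase-like gene whose note only mentions a bZIP mutant. The lower loci were AT1G42990, AT2G12940, AT2G13115 and AT2G13150. Among those not called, bZIP42 (AT3G30530) differed by -1.14 and BZO2H3 (AT5G28770) by 1.03 (limma adjusted p = 0.190 and 0.138). VIP1, a bZIP factor without the word in its note, was not called. bZIP proteins are transcription factors that bind DNA through a basic region and pair through a leucine zipper. The transcribed pseudogene AT2G13115 had 1.16, 1.46 and 5.58 RPKM in Cm x L and 51.5, 30.6 and 39.8 RPKM in L x Cm (difference -3.64, SE 0.43, limma adjusted p = 0.00550). UNE4 (AT2G12940), named for unfertilised embryo sacs in its mutant, had 0.296, 1.24 and 5.42 RPKM against 26.3, 14.4 and 28.5 RPKM (difference -3.12, SE 0.57, limma adjusted p = 0.0112). Cm x L 3 was the highest Cm x L library in both, and still below the L x Cm libraries. The bZIP gene AT2G13150 differed by -1.84 (SE 0.48, limma adjusted p = 0.0297), a call that was lost when any library other than Cm x L 3 was left out and after quantile normalization (adjusted p = 0.107).

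Genes for small secreted cysteine-rich peptides were mostly not called. Of 31 such loci by their annotation, 12 were tested, 3 were lower and none was higher, with a median difference of -1.30. Over all tested loci 18.3% were lower and 6.73% higher. LCR84 (AT2G14365), related to pollen coat proteins, had the highest mean of the pericentromeric loci of chromosome 2. It had 340, 267 and 171 RPKM in Cm x L and 833, 538 and 469 RPKM in L x Cm (difference -1.25, SE 0.33, limma adjusted p = 0.0320). The crosses did not overlap, but the call was lost without Cm x L 1, Cm x L 2, L x Cm 1 or L x Cm 2 (highest adjusted p = 0.1004) and after quantile normalization (0.0571).

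LCR50 (AT2G12465), of the same family, had 15.2, 11.4 and 6.63 RPKM in Cm x L and 54.6, 33.8 and 51.3 RPKM in L x Cm (difference -2.01, SE 0.31, limma adjusted p = 0.00762). The defensin-like gene AT1G35537 had 4.87, 2.93 and 17.2 RPKM against 64.1, 33.5 and 36.2 RPKM (difference -2.55, SE 0.53, limma adjusted p = 0.0163, lost without Cm x L 1 or L x Cm 1). In both genes all L x Cm libraries lay above all Cm x L libraries. The defensin-like gene AT2G12475 had 85.0, 61.8 and 91.2 RPKM against 203, 139 and 103 RPKM and missed the threshold (limma adjusted p = 0.0518). The 2 pollen markers together had 79.4, 445 and 43.6 RPKM in Cm x L and 422, 1685 and 653 RPKM in L x Cm, and their part in these values was not tested.

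A list of 46 protein-coding genes of known function in these regions was also followed, of which 45 were tested. Of these 7 were higher and 4 lower, against 6.73% higher and 18.3% lower of all tested loci. Their median difference was 0.03, against -0.40 for the tested pericentromeric protein-coding genes. These sets were not matched for level. The median of the pericentromeric protein-coding genes was -1.19 at 1 to 5 RPKM, -0.07 at 5 to 20 RPKM and 0.21 at 20 RPKM or more. In the group of photosynthesis and plastid genes 3 of 4 were higher, while PMI1 was not called (difference -0.25, limma adjusted p = 0.325). The list was chosen with earlier results of these data known. AGT (AT2G13360), a photorespiratory aminotransferase of peroxisomes, had 86.9, 94.5 and 99.9 RPKM in Cm x L and 49.7, 34.7 and 32.9 RPKM in L x Cm (difference 1.26, SE 0.19, limma adjusted p = 0.00750). GAPB, a subunit of chloroplast glyceraldehyde-3-phosphate dehydrogenase, differed by 0.81 (limma adjusted p = 0.0496) and CUE1, the plastid phosphoenolpyruvate translocator, by 0.70 (limma adjusted p = 0.0414). AGT kept its call under each omission of a library and after quantile normalization, while GAPB and CUE1 lost theirs after quantile normalization (adjusted p = 0.0859 and 0.0852). GAPB was also lost with a pseudocount of 0.1 (adjusted p = 0.0558) and when any library other than Cm x L 3 was left out, and CUE1 without Cm x L 1, Cm x L 2, L x Cm 1 or L x Cm 2.

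The other higher genes of the list were QQS, AN3 and ALD1, given above, and DAYSLEEPER (AT3G42170), a gene derived from a hAT transposase that plants need for normal development. DAYSLEEPER had 30.0, 30.1 and 33.5 RPKM in Cm x L and 18.3, 14.9 and 24.1 RPKM in L x Cm (difference 0.71, SE 0.20, limma adjusted p = 0.0387). The crosses did not overlap. Its call was lost when any library other than L x Cm 3 was left out and after quantile normalization (adjusted p = 0.0759).

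The 4 lower genes of the list had low levels in Cm x L, with means from 0.298 to 1.02 RPKM. They were CALS5, a callose synthase of the pollen wall, RAP2.6, an ethylene response factor, LSH1, a gene of the ALOG family, and PR1, the pathogenesis-related marker of salicylic acid responses. PR1 (AT2G14610) had 0, 0.893 and 0 RPKM in Cm x L and 4.40, 3.33 and 3.72 RPKM in L x Cm (difference -1.96, SE 0.39, limma adjusted p = 0.0140, lost without Cm x L 1). CALS5 differed by -1.50, RAP2.6 by -1.47 and LSH1 by -2.42, with limma adjusted p of 0.0262, 0.0361 and 0.0313. The Cm x L means of CALS5, RAP2.6 and PR1 were below 1 RPKM (0.632, 0.449 and 0.298). These genes therefore passed the filter through L x Cm alone, which favours lower calls. LSH1 was not low in every library, with 12.3 and 16.2 RPKM in L x Cm 1 and 2. CALS5 and LSH1 lost their calls without Cm x L 1, Cm x L 3, L x Cm 1 or L x Cm 2, and RAP2.6 when any library other than L x Cm 3 was left out. The groups of nitrogen and amino acid metabolism, lipid and wax synthesis, translation and folding, membrane and transport, and hormones held no call. ERD5, a proline dehydrogenase, had 70.3, 122 and 192 RPKM in Cm x L and 64.1, 111 and 151 RPKM in L x Cm, so the crosses overlapped. With a pseudocount of 0.1, RAP2.6 and LSH1 lost their calls (adjusted p = 0.0696 and 0.0560). None of the 4 lower calls remained after quantile normalization, where the adjusted p ran from 0.0770 to 0.571.

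Of the 12 loci with the highest means, 3 on each chromosome, QQS, AN3 and AT5G28060 were higher and LCR84 was lower. RP1 (AT1G43170), a protein of the large ribosomal subunit, had 230, 231 and 335 RPKM in Cm x L and 169, 186 and 209 RPKM in L x Cm (limma adjusted p = 0.133). BIP1 (AT5G28540), a chaperone of the endoplasmic reticulum, had 95.2, 123 and 222 RPKM against 229, 193 and 252 RPKM (limma adjusted p = 0.126). The vacuolar proton pump subunit AT3G42050 had 63.1 ± 2.2 RPKM in Cm x L and 61.7 ± 3.6 RPKM in L x Cm (SD, n = 3 each, limma adjusted p = 0.877). The ribosomal protein gene AT5G28060 was higher, with 146, 130 and 167 RPKM against 84.8, 73.2 and 108 RPKM (difference 0.74, SE 0.20, limma adjusted p = 0.0309), a call lost without Cm x L 1, L x Cm 1 or L x Cm 2. AT1G35242, of unknown function, the formin-related AT1G42980 and the gibberellin-regulated AT2G14900 were not called (limma adjusted p = 0.716, 0.0585 and 0.338).

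The most abundant of the pericentromeric loci lay on chromosome 3, where AT3G41762 and the non-coding AT3G41761 overlap on opposite strands. AT3G41762 had 562, 814 and 139 RPKM in Cm x L and 880, 594 and 935 RPKM in L x Cm, and the crosses overlapped (limma adjusted p = 0.256). AT3G41761 had 286, 729 and 120 RPKM against 1036, 725 and 902 RPKM (limma adjusted p = 0.0787). Cm x L 3 was the lowest library at both loci. Nearly all of each sequence is repeated elsewhere, among others in AT2G01008 at 99.1% and 98.8% identity, and whether counting used strand is not given, so their reads cannot be told apart.

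Single libraries changed the number of calls. Of the 50 higher calls, 15 were made under all 6 omissions, and of the 329 lower calls 62 were. Without Cm x L 1 there were 16 higher and 63 lower, without Cm x L 2 there were 25 and 307, and without Cm x L 3 there were 63 and 199. Without L x Cm 1, 2 or 3 there were 28 and 118, 22 and 119, and 41 and 410. Lower calls outnumbered higher calls in each case, and they did so over all tested loci too. Without Cm x L 1, 1.69% of the tested pericentromeric loci were higher and 6.65% lower, against 1.35% and 4.67% of all loci. Without L x Cm 3 the shares were 4.32% and 43.2%, against 5.56% and 19.7%. Log2 values of the tested loci correlated at 0.846 to 0.957 within a cross and at 0.719 to 0.825 between crosses (Pearson, across loci, which are not independent replicates).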

How the data were processed

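The table deposited by the authors gives RPKM per locus for 6 libraries; per the submitters' processing notes, reads were aligned with TopHat2 2.1.0 to TAIR10. Of the counting tool, strand and reads with several matches, nothing is given in the sources used here. RPKM are not counts, so the crosses were compared with limma 3.58.1 (R 4.3.3) on log2(RPKM + 1), with a mean-variance trend and cross as the only term, over the 26620 loci averaging 1 RPKM or more, and adjusted by Benjamini-Hochberg at 0.05. The fit was tested on simulated data first. For single loci an exact permutation test of 3 libraries against 3 cannot go below p = 0.10 and was not used.

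Sequencing totals were estimated from pseudogenes with few reads, whose RPKM times exon length should step in whole reads. The total was chosen so that 99.2% to 100% of them came within 0.02 of a whole number, which is therefore no independent check. Reads are printed only where they came out whole, and the precision they give covers counting error only. Locus classes, positions and upstream windows come from RefSeq's TAIR10.1 annotation, whose build is named differently from the authors'. Repeated stretches were found with BLAST+ 2.17.0 (at least 95% identity over 100 bases). Of the list of 46 genes, 44 symbols matched the annotation.

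Named loci were the 10 largest called differences in each direction whose libraries did not overlap, the 2 largest per direction by the same criteria and the 3 highest means on each chromosome, and the called and the 2 most abundant uncalled genes of each group of the gene list. The loci, gene list, families, motif and runs were chosen with earlier results of these data known. Alternatives were a pseudocount of 0.1, no filter, a mean of at least 5 RPKM, quantile normalization, a replicate block and leaving out each library.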

Additional observations from a re-analysis of the deposited data

How the results depend on the processing

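Counts of pericentromeric loci higher and lower in Cm x L were 50 and 329. A pseudocount of 0.1 gave 44 and 249, no filter 45 and 392, a mean of at least 5 RPKM 35 and 40 (of 279 loci), and quantile normalization 71 and 74. By chromosome (1, 2, 3 and 5), a mean of at least 5 RPKM left 4, 18, 9 and 4 higher and 12, 14, 6 and 8 lower, and quantile normalization gave 12, 29, 13 and 17 higher and 21, 20, 16 and 17 lower. The median difference of -1.18 became -2.53 with a pseudocount of 0.1, -0.48 with no filter, 0.065 with a mean of at least 5 RPKM and -0.16 with quantile normalization, which also moved the median of all loci from -0.22 to 0.04; the cause was not tested.

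Leaving out 1 library gave 16 to 63 higher and 63 to 410 lower loci in all. By chromosome the ranges were 2 to 11 and 15 to 116 on chromosome 1, 6 to 23 and 19 to 98 on chromosome 2, 5 to 15 and 14 to 78 on chromosome 3, and 2 to 14 and 15 to 118 on chromosome 5. The median then ran from -1.41 to -0.95, and the ratio of summed RPKM (0.832) from 0.773 to 0.905.

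Libraries with the same replicate number deviated together only weakly (r = 0.081, 0.146 and 0.204 for numbers 1, 2 and 3). L x Cm 2 and L x Cm 3 correlated best with the Cm x L library of their own number, but L x Cm 1 with Cm x L 2 (0.124). Seed coat markers rose with the number in both crosses (107, 144 and 338 RPKM in Cm x L, 196, 295 and 399 RPKM in L x Cm). Endosperm, pollen and embryo markers did not. The numbers were not taken as pairs, and a shared effect of the number was tried as a block. With a replicate block 50 were higher and 280 lower (5.27% and 29.5%, against 7.37% and 18.4% of all loci). CUE1 then lost its call (limma adjusted p = 0.0537).

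Among named loci that were not called, the sign of the difference changed after quantile normalization for AT3G42050 (to -0.047), AT2G14560 (to 0.32) and AT3G30180 (to 0.32). With single libraries left out it ran from -0.55 to 0.079 for AT1G35242, -0.19 to 0.030 for AT1G35580, -0.15 to 0.57 for AT3G30775, -0.048 to 0.35 for AT1G36160, -0.43 to 0.066 for AT2G14890 and -0.17 to 0.29 for AT5G33340. At 0.0342 to 0.0471 RPKM per read on 1 kb, loci under 1 RPKM rest on few reads.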
